A study of Danio rerio with 27 samples.

Results

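The melanin and pigment cell genes described here are 10 transcripts of the zebrafish melanosome, the organelle in which melanin is made and stored. They were chosen by symbol, and all 10 stood on 1 entry each of the 39988 entries in the gene-level count table: pmela (premelanosome protein a, ZDB-GENE-030131-9818), pmelb (premelanosome protein b, ZDB-GENE-050912-2), tyr (tyrosinase, ZDB-GENE-991026-3), dct (dopachrome tautomerase, ZDB-GENE-000508-1), tyrp1a (tyrosinase-related protein 1a, ZDB-GENE-070718-2), tyrp1b (tyrosinase-related protein 1b, ZDB-GENE-040718-249), slc24a5 (ZDB-GENE-031210-1), slc45a2 (ZDB-GENE-050208-97), oca2 (ZDB-GENE-070718-4) and mlana (melan-A, ZDB-GENE-171207-1). Of these, 6 (pmela, pmelb, tyr, dct, tyrp1a and tyrp1b) had enough counts to be tested, and 4 (oca2, slc24a5, slc45a2 and mlana) did not.

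Tyrosinase catalyses the first steps from tyrosine to melanin, and the tyrosinase-related proteins and dopachrome tautomerase act on later intermediates or steady the enzyme complex. Premelanosome protein forms the fibrils on which melanin is laid down, and slc24a5, slc45a2 and oca2 encode membrane transporters that set the ionic conditions of the melanosome. In fish these genes are used by neural crest-derived melanophores of the skin and by the retinal pigment epithelium, the pigmented cell layer behind the photoreceptors, so RNA of a whole larva mixes both sources. Loss of slc45a2 gives zebrafish with little melanin (the albino mutant), and loss of slc24a5 gives the golden mutant.

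RNA was taken from pooled whole larvae at 21 days post fertilisation, and Lexogen QuantSeq libraries, which read the 3′ ends of polyadenylated transcripts, were counted per gene. Larvae were wild type (WT) or PY (P53KO;lf:YAP), a background that lacks p53, overexpresses the growth-promoting coactivator YAP in the liver at all times, and is described as bearing tumours and wasting. Embryos of every group had received CRISPR/Cas9 complexes with guides against SLC45a2, either alone (SLC45a2-KO) or together with guides against the bile acid receptor TGR5 (TGR5-KO) or against CYP7a1, which starts the classical route of bile acid synthesis (CYP7a1-KO). The 3 WT groups held 4 libraries each and the 3 PY groups 5 each, 27 in all. No group without SLC45a2 guides was analysed here, so every level below is that of larvae whose pigment transporter gene was targeted. The injected animals themselves were collected, and such animals can carry a mixture of edited and unedited cells. How many larvae made a pool, and where the guides cut, is not stated in the labels.

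Library totals ran from 3377345 to 6238251 counts (median 4533099). A gene at 0 could still have had up to 3 counts, or 0.481 to 0.888 CPM (its counts per 1000000 of the library total), a limit that covers counting error only. Levels are given as CPM scaled by TMM factors, with the SD over libraries, and changes as log2 differences ± SE from edgeR's quasi-likelihood test, adjusted by Benjamini-Hochberg over all 15521 genes tested and called at 0.05. Nothing in the labels says that pools came from separate clutches or tanks, so p-values measure the spread between these pools, which may be partly technical. In RNA of whole larvae, fewer pigment cells and less RNA per pigment cell cannot be told apart. Within PY CYP7a1-KO, libraries 1 and 2 differed from libraries 3 to 5 by a chi-square per degree of freedom of 14.2 to 22.9, against 8.45 to 13.7 among libraries 3 to 5 and 8.66 between 1 and 2. For the melanin and pigment cell genes, results for that group are given without both libraries wherever this changed a call. Genes of the other lists were not rechecked without these or any other libraries.

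The targeted transporter gene was examined first. The slc45a2 transcript had 20 counts over the 27 libraries, and 19 libraries were at 0. Of the 20, 11 came from PY SLC45a2-KO, where libraries 1 to 5 held 0, 8, 2, 1 and 0 counts. WT SLC45a2-KO held 1 count, WT TGR5-KO 1, WT CYP7a1-KO 2, PY TGR5-KO 1 and PY CYP7a1-KO 4, and in each of these groups a single library carried them. These levels lay at or near the counting limit in every group, and with no library from larvae without the guides they give no check of the knockout. A 3′ tag outside the edited stretch would in any case check nothing.

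Tyrp1b, a duplicate of the tyrosinase-related protein 1 gene, had 7458 counts over the 27 libraries and was lower in PY. Its scaled CPM in the 4 WT SLC45a2-KO libraries was 93.6, 85.5, 99.1 and 76.0, and in the 5 PY SLC45a2-KO libraries 27.1, 26.1, 32.7, 28 and 29.8. The highest PY pool thus lay well below the lowest WT pool, and the PY pools spanned a narrow range (28.8 ± 2.59, n = 5, against 88.6 ± 10.1, n = 4). The change was -1.62 ± 0.16 on the log2 scale, a level 3.08-fold lower (edgeR adjusted p = 1.4e-11).

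With the added knockouts in PY the tyrp1b level was higher. The 5 PY TGR5-KO libraries stood at 54.9, 41.3, 55.2, 48.8 and 77.4 CPM, all above the PY SLC45a2-KO pools, with library 5 the highest. The 5 PY CYP7a1-KO libraries stood at 46.3, 35.0, 42.2, 58.5 and 37.4 CPM, again all above those pools. TGR5-KO raised tyrp1b in PY by 0.95 ± 0.16 (edgeR adjusted p = 2.15e-05) and CYP7a1-KO by 0.61 ± 0.16 (edgeR adjusted p = 0.00471). In WT the 4 TGR5-KO libraries held 77.4, 67.1, 86.9 and 91.4 CPM and the 4 CYP7a1-KO libraries 78.3, 79.9, 71.4 and 63.7 CPM, which overlapped the WT SLC45a2-KO pools. Ordered by their means, the groups ran WT SLC45a2-KO (88.6 ± 10.1, n = 4), WT TGR5-KO (80.7 ± 10.8, n = 4), WT CYP7a1-KO (73.3 ± 7.43, n = 4), PY TGR5-KO (55.5 ± 13.5, n = 5), PY CYP7a1-KO (43.9 ± 9.26, n = 5) and PY SLC45a2-KO (28.8 ± 2.59, n = 5). The 3 WT groups overlapped one another, as did the PY knockouts, and PY TGR5-KO library 5 reached the range of the WT groups. Tyrp1b in PY SLC45a2-KO stood below all others.

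Tyrp1a, the other duplicate of the pair, followed a like course with a larger rise under TGR5-KO. Its 4 WT SLC45a2-KO libraries held 26.0, 24.7, 31.2 and 29.2 CPM, and its 5 PY SLC45a2-KO libraries 12.5, 5.56, 7.24, 7.49 and 10.2 CPM. All PY pools were below all WT pools, and the change was -1.69 ± 0.21 (edgeR adjusted p = 6.21e-09), or 3.22-fold lower. The 5 PY TGR5-KO libraries held 20.8, 24.9, 25.1, 19.8 and 29.7 CPM, and the 5 PY CYP7a1-KO libraries 12.8, 14.6, 18.3, 24.1 and 14.4 CPM. Both sets lay wholly above the PY SLC45a2-KO pools, although the lowest CYP7a1-KO pool exceeded the highest of those by little. TGR5-KO raised tyrp1a in PY by 1.48 ± 0.20, or 2.79-fold (edgeR adjusted p = 9.04e-07), and CYP7a1-KO raised it by 0.98 ± 0.21, or 1.97-fold (edgeR adjusted p = 0.000661). In WT it ranged from 23.8 to 33.4 CPM with TGR5-KO and from 29.8 to 36.7 CPM with CYP7a1-KO. The order of the tyrp1a means was WT CYP7a1-KO (32.5 ± 3.20, n = 4), WT TGR5-KO (29.7 ± 4.09, n = 4), WT SLC45a2-KO (27.8 ± 2.94, n = 4), PY TGR5-KO (24.1 ± 3.95, n = 5), PY CYP7a1-KO (16.8 ± 4.55, n = 5) and PY SLC45a2-KO (8.60 ± 2.75, n = 5). The pools of the PY knockouts overlapped each other, and the PY TGR5-KO pools overlapped the 2 WT groups with TGR5-KO or SLC45a2-KO alone. Tyrp1a and tyrp1b, like pmela and pmelb, are gene duplicates, and how reads shared by duplicates were counted is not described.

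Tyrosinase itself gave another picture. The tyr level in the 4 WT SLC45a2-KO libraries was 8.53, 6.23, 7.74 and 5.50 CPM, and in the 5 PY SLC45a2-KO libraries 8.58, 2.88, 9.24, 7.49 and 5.74 CPM. The groups overlapped throughout, with means of 7 ± 1.38 (n = 4) and 6.79 ± 2.55 (n = 5), and the change was -0.05 ± 0.31 (95% interval -0.66 to 0.56, edgeR adjusted p = 0.919). The interval excludes a fall of the size measured for tyrp1a or tyrp1b, but not a smaller change in either direction. Across the other groups tyr averaged 7.56 ± 1.23 CPM in WT TGR5-KO (n = 4), 8.59 ± 2.38 in WT CYP7a1-KO (n = 4), 7.14 ± 2.1 with TGR5-KO in PY (n = 5) and 7.37 ± 2.56 with CYP7a1-KO in PY (n = 5). Over all 11 comparisons its log2 change stayed between -0.23 and 0.29 and none was called.

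Dopachrome tautomerase was sparse. It entered the test through 4 libraries that reached the filter's 2.21 CPM before scaling, 3 of WT TGR5-KO and 1 of WT SLC45a2-KO and 0 of PY, so the filter admitted dct by the groups where it was high. The dct transcript had 2, 7, 6 and 20 counts in the WT SLC45a2-KO libraries and 0, 4, 4, 1 and 1 in the PY SLC45a2-KO libraries. The groups overlapped, and WT library 4 held more than its 3 fellows together. The change of -1.87 ± 0.75 passed narrowly (edgeR adjusted p = 0.0461). With no filter it did not pass (adjusted p = 0.1), and without WT SLC45a2-KO library 4 it was -1.16 with an adjusted p of 0.31. With TGR5-KO in both backgrounds dct was also lower in PY, by -2.18 ± 0.73 (edgeR adjusted p = 0.0268), from 4, 13, 17 and 12 counts in WT and 2, 1, 3, 1 and 4 in PY, where again the groups touched. That call was lost with no filter too (adjusted p = 0.0592). With CYP7a1-KO the change was -0.14 ± 0.70 (edgeR adjusted p = 0.912), and both groups held 26 counts. The call for dct with SLC45a2-KO alone was also lost on leaving out WT SLC45a2-KO library 2 or PY SLC45a2-KO library 1, 4 or 5 (adjusted p = 0.0577 to 0.107). The call with TGR5-KO was lost on leaving out WT TGR5-KO library 2 or 3 or PY TGR5-KO library 1, 2 or 4 (adjusted p = 0.0511 to 0.0868).

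The 2 premelanosome protein genes were both lower in PY. The pmela level was 17.5, 24.9, 28.9 and 22.9 CPM in the 4 WT SLC45a2-KO libraries and 12.8, 9.06, 12, 7.76 and 14.3 CPM in the 5 PY SLC45a2-KO libraries. No PY pool reached the lowest WT pool, and the change was -1.07 ± 0.21 (edgeR adjusted p = 6.22e-05), or 2.10-fold lower. The pmelb level was 12.8, 8.16, 12.5 and 11.9 CPM in the same WT libraries and 2.09, 1.85, 0.999, 4.71 and 2.34 CPM in the same PY libraries. These groups did not overlap either, and pmelb fell by 2.26 ± 0.36 on the log2 scale, or 4.77-fold (edgeR adjusted p = 1.28e-06).

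With the added knockouts in PY, pmelb stood at 4.50, 6.12, 4.56, 3.96 and 6.81 CPM with TGR5-KO and at 3.46, 3.04, 1.94, 5.36 and 7.52 CPM with CYP7a1-KO. Of the pools with SLC45a2-KO alone, library 4 reached into both ranges. The TGR5-KO change of 1.13 ± 0.36 passed (edgeR adjusted p = 0.0314), and it was lost on leaving out PY SLC45a2-KO library 1, 2, 3 or 5 or PY TGR5-KO library 2 or 5 (adjusted p = 0.0548 to 0.107). The CYP7a1-KO change of 0.87 ± 0.36 did not pass (edgeR adjusted p = 0.106), but it did without PY SLC45a2-KO library 4 (1.22, adjusted p = 0.0303). For pmela the PY pools held 15.6, 11.3, 18.7, 15.8 and 15.3 CPM with TGR5-KO and 13.6, 15.8, 13.1, 19.1 and 9.70 CPM with CYP7a1-KO. The changes of 0.45 ± 0.21 and 0.35 ± 0.21 missed the threshold (edgeR adjusted p = 0.157 and 0.296), and the pmela groups overlapped. In WT, pmela averaged 24.5 ± 2.24 CPM (n = 4) with TGR5-KO and 25.0 ± 4.40 (n = 4) with CYP7a1-KO, and pmelb 11.7 ± 0.924 (n = 4) and 8.77 ± 3.86 (n = 4).

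**Figure D1:**
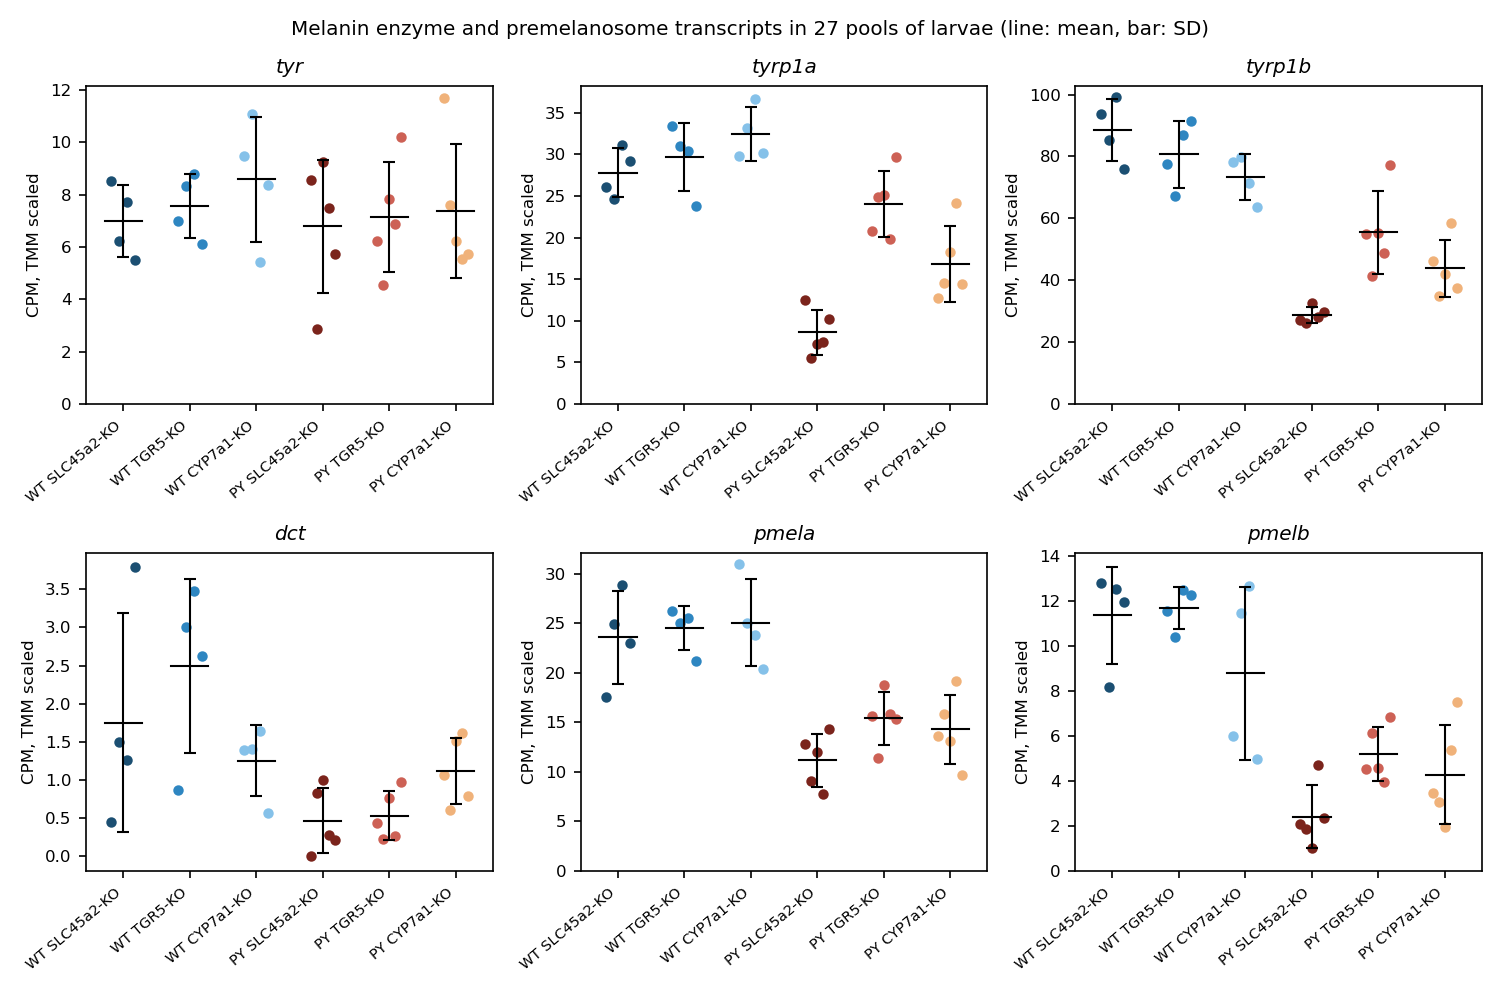
Scaled CPM (vertical axis, linear from 0) of the 6 tested genes in each of the 27 libraries, by group; points are libraries, lines are means and bars are SD. For tyrp1a, tyrp1b, pmela and pmelb all 5 PY SLC45a2-KO pools lie below all 4 WT SLC45a2-KO pools, while for tyr the groups overlap.

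Of the 6 tested genes, 4 (pmela, pmelb, tyrp1a and tyrp1b) were called lower in PY against WT with SLC45a2-KO alone, and 0 higher, beside the fragile call for dct, where 17.7% of all tested genes were called lower and 17.9% higher. Without dct, the median log2 change of the 5 was -1.62, against -0.02 over all tested genes. With TGR5-KO in both backgrounds 3 were called lower (pmela, pmelb and tyrp1b) beside dct, against 8.42% of all genes lower and 11.4% higher. Here tyrp1b changed by -0.54 ± 0.16 (edgeR adjusted p = 0.0101), pmela changed by -0.67 ± 0.21 (edgeR adjusted p = 0.0165) and pmelb by -1.16 ± 0.33 (edgeR adjusted p = 0.00842). Without PY TGR5-KO library 2 both the pmela call (-0.58, adjusted p = 0.0516) and the dct call (-1.99, adjusted p = 0.06) were lost, which left 2 members called. Tyrp1a, with a change of -0.30 ± 0.20 (95% interval -0.69 to 0.08, edgeR adjusted p = 0.302), did not pass. With CYP7a1-KO in both backgrounds 4 were called lower (pmela, pmelb, tyrp1a and tyrp1b), against 9.96% of all genes lower and 13.3% higher. Tyrp1a changed by -0.94 ± 0.20 (edgeR adjusted p = 0.000328), tyrp1b by -0.74 ± 0.16 (edgeR adjusted p = 0.000399), pmela by -0.81 ± 0.21 (edgeR adjusted p = 0.00302) and pmelb by -1.02 ± 0.34 (edgeR adjusted p = 0.0216). Without PY CYP7a1-KO libraries 1 and 2 the pmelb change was -0.82 and no longer passed (adjusted p = 0.115), and leaving out WT CYP7a1-KO library 2 or 3 or PY CYP7a1-KO library 2 or 3 alone also ended that call (adjusted p = 0.0511 to 0.126).

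To ask what the added knockouts did within PY, each was compared with SLC45a2-KO alone. TGR5-KO raised 3 of the 6 tested genes (tyrp1a, tyrp1b and pmelb) and lowered 0, against 6.33% of all genes higher and 5.01% lower, and the median without dct was 0.95 against 0.02 over all genes. Among these the pmelb call was fragile and was lost in 6 of the 10 fits that left out 1 library. CYP7a1-KO raised 2 (tyrp1a and tyrp1b) and lowered 0, against 7.49% higher and 5.9% lower, with a median without dct of 0.61 against 0.02. Both comparisons use the same 5 PY SLC45a2-KO libraries, which are also those of PY against WT, so these comparisons are not independent. Between the knockouts in PY no member was called, against 0.135% of all genes in either direction. Tyrp1a was higher in TGR5-KO by 0.50 ± 0.19 and tyrp1b by 0.34 ± 0.15 at an unadjusted p under 0.05 (0.0116 and 0.0317), which did not survive adjustment (edgeR adjusted p = 0.373 and 0.503), and DESeq2 called 0 members as well.

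In WT neither added knockout changed a member past the threshold in edgeR or DESeq2, and 0 had an unadjusted p under 0.05. Over all genes 6.49% were called in either direction for TGR5-KO and 11.6% for CYP7a1-KO in WT. The 95% intervals in WT ran from -0.46 to 0.19 for tyrp1b and from -0.31 to 0.50 for tyrp1a with TGR5-KO, and from -0.60 to 0.05 and -0.18 to 0.63 with CYP7a1-KO. Between TGR5-KO and CYP7a1-KO in WT 0 members were called by either tool and 0 had an unadjusted p under 0.05, where 21.1% of all genes were called in either direction. For dct the WT intervals were wide, from -0.86 to 1.84 with TGR5-KO, so changes of more than a doubling were not excluded.

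Whether a knockout acted differently in the 2 backgrounds was tested with the change in PY minus that in WT. For TGR5-KO this difference was called higher for 2 members, against 3.94% of all genes higher and 2.76% lower: tyrp1a at 1.38 ± 0.29 (edgeR adjusted p = 0.00117) and tyrp1b at 1.08 ± 0.23 (edgeR adjusted p = 0.00118). For CYP7a1-KO it was called for tyrp1b at 0.89 ± 0.23 (edgeR adjusted p = 0.00409), against 10.8% of all genes higher and 6.98% lower. Tyrp1a at 0.75 ± 0.29 and pmelb at 1.24 ± 0.49 missed the threshold for CYP7a1-KO (edgeR adjusted p = 0.0635 and 0.0746). Without PY CYP7a1-KO libraries 1 and 2 both passed, tyrp1a at 0.91 (adjusted p = 0.0223) and pmelb at 1.43 (adjusted p = 0.0421), which made 3 members in place of 1. Pmelb also passed on leaving out WT CYP7a1-KO library 3, PY SLC45a2-KO library 4 or PY CYP7a1-KO library 3 (1.43 to 1.58), and tyrp1a on leaving out PY SLC45a2-KO library 1 or PY CYP7a1-KO library 1 (0.83 to 0.93).

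**Figure D2:**
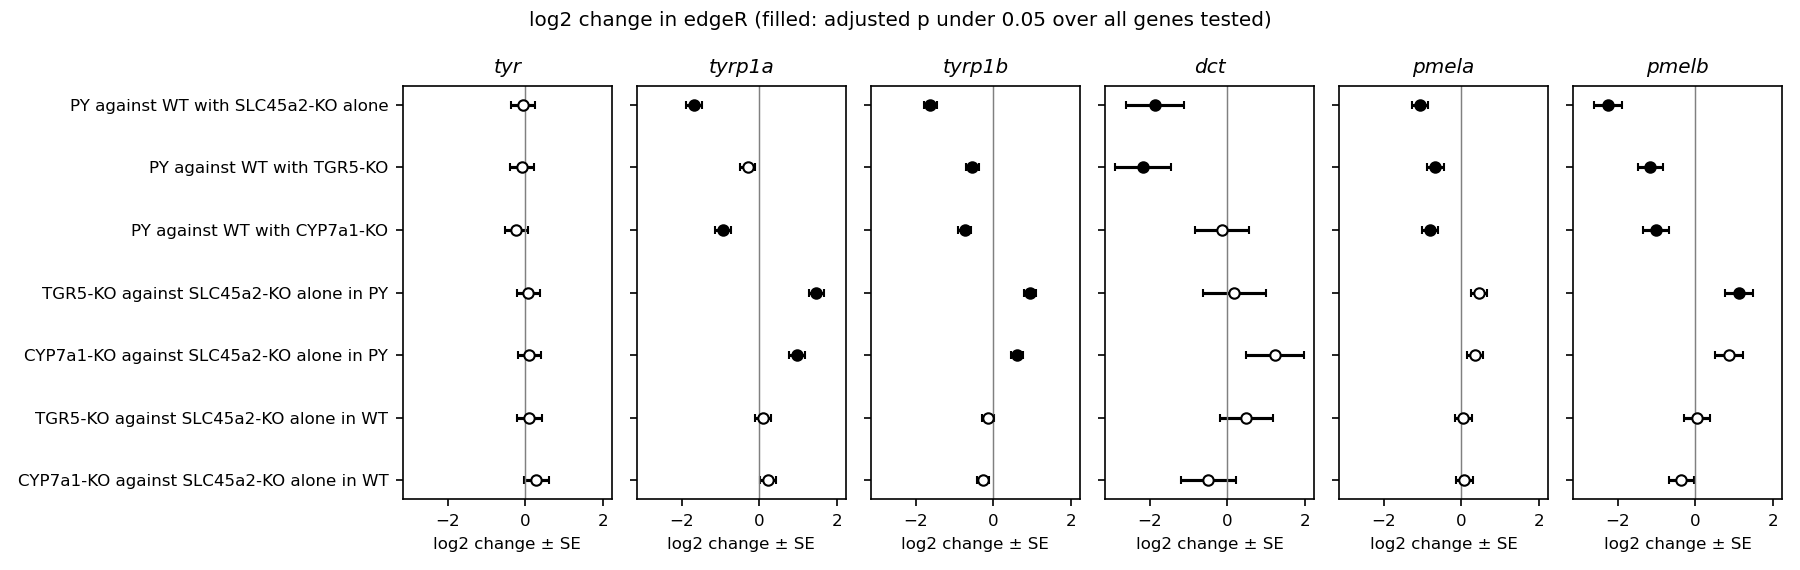
Log2 change with its SE (horizontal axis) of the 6 tested genes in 7 comparisons between 2 groups, from edgeR; filled points passed an adjusted p of 0.05 over all genes tested. Tyrp1a and tyrp1b lie left of 0 in PY with SLC45a2-KO alone (-1.69 and -1.62) and right of 0 for both knockouts in PY, and every point of the WT knockouts is open.

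The remaining transporters and mlana were too low for the model. Slc24a5, the cation exchanger of the golden mutant, had 102 counts: 5, 4, 6 and 5 in WT SLC45a2-KO, 1, 4, 4 and 8 in WT TGR5-KO, 0, 6, 6 and 5 in WT CYP7a1-KO, 2, 5, 5, 3 and 2 in PY SLC45a2-KO, 4, 3, 2, 4 and 1 in PY TGR5-KO, and 2, 3, 2, 5 and 5 in PY CYP7a1-KO. No group stood apart, and group means ran from 0.669 to 1.05 CPM, near the counting limit. Oca2, whose mammalian counterpart is an anion channel of the melanosome, had 58 counts, of which PY TGR5-KO held 22 (3, 6, 2, 0 and 11 by library), PY CYP7a1-KO 14, WT CYP7a1-KO 9, PY SLC45a2-KO 6, WT TGR5-KO 4 and WT SLC45a2-KO 3. Library 5 thus held 11 of the 22 in PY TGR5-KO, and the pools overlapped those with SLC45a2-KO alone (exact permutation p, both sides = 0.13). Melan-A, a melanosome protein of mammalian melanocytes, had 1 count in all, in PY CYP7a1-KO library 5. Across these 4 genes 30 exact two-sided permutation tests gave no adjusted p below 1 and no unadjusted p under 0.05, and the smallest p that the libraries allow is 0.016 for PY against WT, 0.0079 within PY and 0.029 within WT. Adjusted over 30 tests, a single comparison could not have passed 0.05 even at those smallest values, so the adjusted result cannot speak against 1 difference. Differences of these 4 genes were not detectable at this depth with these tests.

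**Figure D3:**
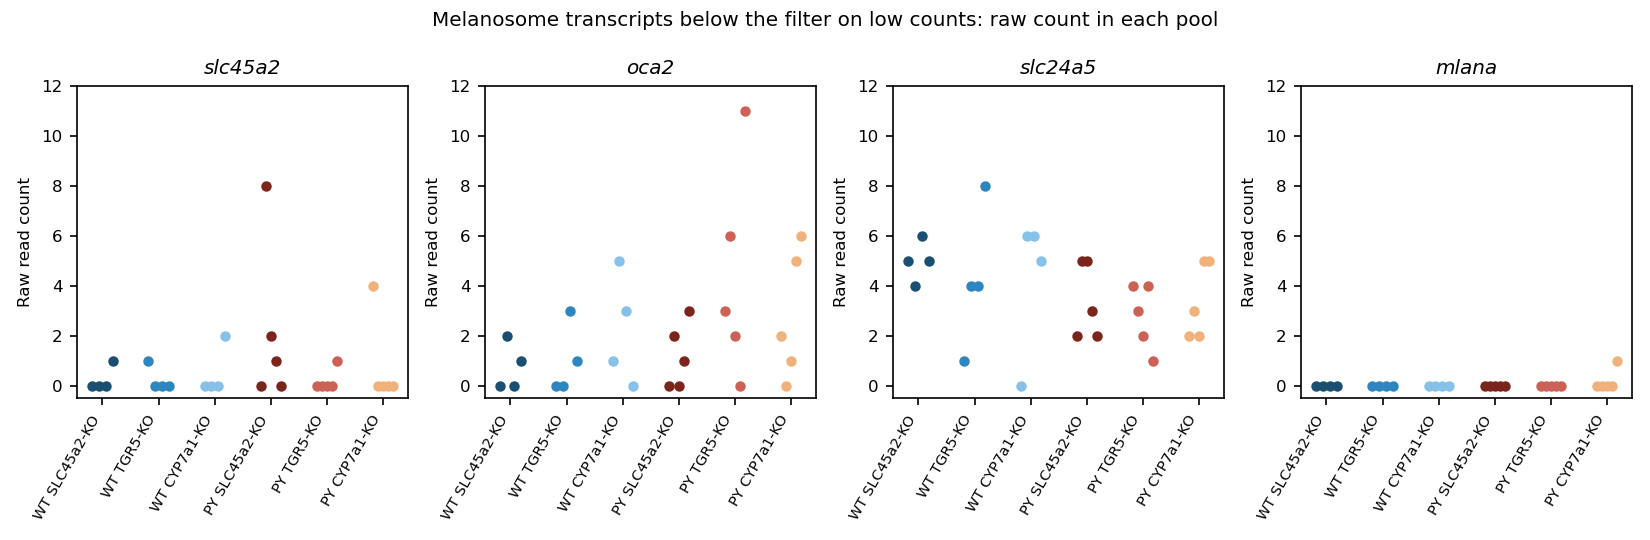
Raw read counts (vertical axis) of slc45a2, oca2, slc24a5 and mlana in each library, by group. All values lie between 0 and 11, and mlana had a count in 1 library of 27.

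Genes around melanin synthesis were then read from 8 lists named for their roles and put together with earlier results of these data known. Of the list for melanosome transport and biogenesis, 31 of the 40 genes counted were tested. In PY against WT with SLC45a2-KO alone 3 rose and 1 fell, lower shares than the 17.9% higher and 17.7% lower of all genes. The median of -0.02 equalled that of all genes, so the genes named next describe single transcripts. The gene that fell was gpr143, which encodes a receptor of the melanosome membrane and changed by -1.56 ± 0.53 (edgeR adjusted p = 0.0182). WT pools averaged 3.42 ± 1.31 CPM (n = 4) and PY pools 1.12 ± 1.17 (n = 5). These pools overlapped, at 1.57 to 4.51 CPM in WT and 0 to 2.78 in PY, where the lowest lay at the counting limit. TGR5-KO in PY raised gpr143 by 1.70 ± 0.51 (edgeR adjusted p = 0.0223), to 3.79 ± 1.59 CPM (n = 5). Of the genes that rose, atp7a, a copper transporter that supplies tyrosinase but acts in many cells, changed by 2.14 ± 0.29 (edgeR adjusted p = 3.37e-08). Slc7a11, a cystine transporter, rose by 1.75 ± 0.64 (edgeR adjusted p = 0.0273). Its mean in WT SLC45a2-KO was 0.853 ± 0.624 CPM (n = 4), near the counting limit. Rab27a, a small GTPase of melanosome transport, rose by 0.96 ± 0.20 (edgeR adjusted p = 0.000151). In PY atp7a was lower with TGR5-KO, at -1.34 ± 0.25 (edgeR adjusted p = 0.000173), and with CYP7a1-KO, at -0.82 ± 0.24 (edgeR adjusted p = 0.0183), the opposite course to tyrp1a and tyrp1b. Over that list 1 gene rose and 1 fell with TGR5-KO in PY, against 6.33% of all genes higher and 5.01% lower. With CYP7a1-KO in PY 0 rose and 1 fell, against 7.49% higher and 5.9% lower.

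Of 12 tested melanophore regulators, 2 rose and 3 fell in PY against WT with SLC45a2-KO alone, with a median of -0.02, shares near the 17.9% and 17.7% of all genes, so the genes named next describe single transcripts and not the list. The receptor tyrosine kinase gene kita, which melanophores need to migrate and survive, was higher by 1.14 ± 0.27 (edgeR adjusted p = 0.00063), the PY pools averaging 19.7 ± 4.40 CPM (n = 5) and the WT pools 8.90 ± 2.59 (n = 4). The endothelin receptor gene ednraa was higher by 1.43 ± 0.27 (edgeR adjusted p = 3.92e-05). Mycla, a MYC-family gene, changed by -2.07 ± 0.51 (edgeR adjusted p = 0.00124), and the transcription factor gene tfap2e, of melanophore development, by -1.43 ± 0.47 (edgeR adjusted p = 0.0135). In PY, TGR5-KO raised 1 regulator (mycla, by 1.60 ± 0.50, edgeR adjusted p = 0.0308) and CYP7a1-KO 0, against 6.33% and 7.49% of all genes higher. Mitfa, the master transcription factor of melanophores, was too low to test, with 8 to 18 counts per group; it is named here after its values were seen.

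Of the other chromatophores, iridophores reflect light from purine crystals and xanthophores hold pteridine and carotenoid pigments. Of 16 tested iridophore markers 8 fell and 2 rose in PY against WT with SLC45a2-KO alone, with a median of -0.88, where 17.7% of all genes were lower and 17.9% higher. The summed list differed little, at 287 ± 10 CPM in WT SLC45a2-KO (n = 4) and 282 ± 13.9 in PY SLC45a2-KO (n = 5). Foxo1a, a marker that rose, was the largest part of this sum in both groups. The sum was not computed without foxo1a, so its likeness between WT and PY does not show that the other markers were unchanged. The markers that rose were tfec by 1.32 ± 0.46 (edgeR adjusted p = 0.0196) and foxo1a by 0.78 ± 0.15 (edgeR adjusted p = 4.82e-05). The purine nucleoside phosphorylase gene pnp4a changed by -1.36 ± 0.33 (edgeR adjusted p = 0.000904) and the purine synthesis gene paics by -1.58 ± 0.20 (edgeR adjusted p = 6.16e-09), though paics and other purine enzymes serve all dividing cells. In PY, TGR5-KO raised 2 of the 16, pnp4a by 1.05 ± 0.32 (edgeR adjusted p = 0.0237) and gmps, and lowered 0, against 6.33% of all genes higher and 5.01% lower. CYP7a1-KO raised 1 and lowered 1, against 7.49% of all genes higher and 5.9% lower, and its change of pnp4a did not pass (0.59 ± 0.33, edgeR adjusted p = 0.257). Of 19 tested xanthophore markers 5 fell and 3 rose, near the 17.7% and 17.9% of all genes, with a median of 0.03. The xanthophore genes named next therefore describe single transcripts and not the list. The pteridine synthesis gene gch2 changed by -2.20 ± 0.34 (edgeR adjusted p = 8.22e-07), from 12.8 ± 1.22 CPM (n = 4) to 2.72 ± 1.53 (n = 5). It was higher by 1.16 ± 0.34 with TGR5-KO (edgeR adjusted p = 0.019) and by 1.37 ± 0.34 with CYP7a1-KO in PY (edgeR adjusted p = 0.00358). Other markers of that list had higher means in PY. Mycbp2 averaged 6.72 ± 2.80 CPM in WT SLC45a2-KO (n = 4) and 20.6 ± 5.38 in PY SLC45a2-KO (n = 5). Pcbd1 averaged 17.3 ± 3.17 and 33.5 ± 8.95 in the same groups. In all 2 xanthophore markers rose and 1 fell with TGR5-KO in PY, against 6.33% of all genes higher and 5.01% lower. With CYP7a1-KO in PY 4 rose and 1 fell, against 7.49% higher and 5.9% lower. Of 5 tested colour change hormone genes 1 rose and 2 fell in PY against WT with SLC45a2-KO alone, against 17.9% of all genes higher and 17.7% lower. The 2 agouti family genes tested went opposite ways, asip2b by -1.29 ± 0.23 (edgeR adjusted p = 1.12e-05) and asip1 by 0.86 ± 0.26 (edgeR adjusted p = 0.00787). In PY asip2b rose with TGR5-KO by 0.67 ± 0.22 (edgeR adjusted p = 0.0416), against 6.33% of all genes higher, while 0 of the 5 changed with CYP7a1-KO. In WT asip2b changed with TGR5-KO by -0.74 ± 0.24 (edgeR adjusted p = 0.0473), where 6.49% of all genes were called in either direction. The asip2b change in PY minus that in WT was 1.42 ± 0.33 (edgeR adjusted p = 0.00354), against 3.94% of all genes higher.

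Markers of other eye and skin cells were set beside the melanin genes. Of 35 tested photoreceptor markers 28 fell and 1 rose in PY against WT with SLC45a2-KO alone, with a median of -1.44. Of all genes 17.7% were lower and 17.9% higher there. With either knockout in PY 11 rose and 0 fell, against 6.33% of all genes higher with TGR5-KO and 7.49% with CYP7a1-KO. The summed level of the photoreceptor list was 2628 to 3267 CPM in WT SLC45a2-KO, 925 to 1133 in PY SLC45a2-KO, 1500 to 1724 in PY TGR5-KO and 1477 to 1818 in PY CYP7a1-KO. The 10 melanin genes summed to 151 to 182 CPM in WT SLC45a2-KO, 49.4 to 64.9 in PY SLC45a2-KO, 110 ± 20.8 (n = 5) with TGR5-KO in PY and 89.3 ± 15.9 (n = 5) with CYP7a1-KO in PY. Tyrp1b was the largest part of this sum, at 88.6 ± 10.1 CPM in WT SLC45a2-KO (n = 4) and 28.8 ± 2.59 in PY SLC45a2-KO (n = 5). Tyr, with no called change, added 7 ± 1.38 and 6.79 ± 2.55, so the sum mostly follows tyrp1b. As a percentage of the photoreceptor sum the melanin sum was 5.58 ± 0.968 (n = 4) in WT SLC45a2-KO and 5.63 ± 0.538 (n = 5) in PY SLC45a2-KO. With TGR5-KO in PY it was 6.95 ± 0.922 (n = 5), and with CYP7a1-KO 5.41 ± 0.593 (n = 5). The melanin sum and the photoreceptor sum were thus lower together in PY, and the percentages of these groups overlapped between WT and PY. The photoreceptor sum holds gnb1b, which differed little, at 352 ± 15.7 CPM in WT SLC45a2-KO (n = 4) and 334 ± 27.7 in PY SLC45a2-KO (n = 5). Gnb1b was thus a larger part of the PY sum (mean 1063) than of the WT sum (mean 2921). Leaving it out would shrink the PY sum by a larger part than the WT sum, and the mean percentage would then be higher in PY than in WT. The likeness of the percentages between WT and PY thus depends on gnb1b. Percentages without it were not computed by library. Of the 48 photoreceptor markers counted, 6 were at 0 in every library (cngb3.1, gngt1, guca1b, nr2e3, rcvrn2 and rcvrna). The part of the photoreceptor change in that of the melanin genes was not tested.

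The retinal pigment epithelium uses melanin genes itself. Of its 15 tested markers 7 fell and 2 rose in PY against WT with SLC45a2-KO alone, with a median of -0.58. Of all genes 17.7% were lower and 17.9% higher there. The visual cycle genes rpe65a and rdh5 changed by -1.77 ± 0.24 (edgeR adjusted p = 3.45e-08) and -2.24 ± 0.31 (edgeR adjusted p = 6.42e-08). In PY rpe65a was higher by 0.99 ± 0.23 with TGR5-KO (edgeR adjusted p = 0.00259) and by 1.04 ± 0.23 with CYP7a1-KO (edgeR adjusted p = 0.00138), and rdh5 by 1.01 ± 0.31 (edgeR adjusted p = 0.0258) and 0.99 ± 0.31 (edgeR adjusted p = 0.025). Over the list 2 rose and 1 fell with TGR5-KO in PY, against 6.33% of all genes higher and 5.01% lower. With CYP7a1-KO in PY 2 rose and 2 fell, against 7.49% higher and 5.9% lower. Mertka, a phagocytosis receptor gene of the same list, ran the other way, with 1.25 ± 0.27 in PY against WT with SLC45a2-KO alone (edgeR adjusted p = 0.000226), -1.11 ± 0.25 with TGR5-KO in PY (edgeR adjusted p = 0.00197) and -1.23 ± 0.25 with CYP7a1-KO in PY (edgeR adjusted p = 0.000562). The summed list gave 333 to 396 CPM in WT SLC45a2-KO and 287 to 410 in PY SLC45a2-KO, but it holds ttr, which the liver also secretes and which rose by 2.82 ± 0.23 (edgeR adjusted p = 1.06e-12). Without ttr, a choice made after its values were seen, the sum was 336 ± 22.9 CPM in WT SLC45a2-KO (n = 4), 183 ± 19.5 in PY SLC45a2-KO (n = 5), 209 ± 35.1 with TGR5-KO in PY (n = 5) and 206 ± 10.7 with CYP7a1-KO in PY (n = 5). The melanin sum as a percentage of it was 48 ± 3.1 (n = 4), 32.7 ± 3.56 (n = 5), 52.6 ± 5.40 (n = 5) and 43.4 ± 8.42 (n = 5) in that order. With TGR5-KO in WT the percentage was 59.2 ± 1.61 (n = 4), on a marker sum of 266 ± 11.3 CPM. With CYP7a1-KO in WT it was 44.5 ± 4.44 (n = 4), on a marker sum of 340 ± 36.9 CPM. The mean percentage with TGR5-KO was thus above that with SLC45a2-KO alone in both backgrounds. Relative to this marker sum the melanin sum was thus lower in PY SLC45a2-KO than in WT SLC45a2-KO by more than the SDs, and no test was made. Rgrb was the largest part of the marker sum in both groups, and the sum also holds mertka, which rose. Rpe65a and rdh5, with changes of -1.77 and -2.24, were smaller parts of it. Rpe65a averaged 20.9 ± 4.34 CPM in WT SLC45a2-KO (n = 4) and 6.13 ± 1.46 in PY SLC45a2-KO (n = 5). Rdh5 averaged 14.4 ± 2.25 and 3 ± 1.62 CPM in the same groups. By group means both fell by a larger factor than the melanin sum, which relative to either gene was thus higher in PY. The direction of the difference therefore depends on which markers weigh most. Percentages against rpe65a and rdh5 alone were not computed by library, and no test was made. Rpe65b and stra6 were at 0 in every library, and the part of the pigment epithelium in the result was not tested.

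Of 26 tested skin keratinocyte markers 10 fell and 4 rose in PY against WT with SLC45a2-KO alone, with a median of -0.37. Of all genes 17.7% were lower and 17.9% higher there. In PY 12 rose and 0 fell with TGR5-KO, and 10 rose and 0 fell with CYP7a1-KO, against 6.33% and 7.49% of all genes higher. In WT 5 rose and 1 fell with CYP7a1-KO (median 0.37), against 11.6% of all genes called in either direction. With TGR5-KO in WT 1 rose and 0 fell (median -0.09), against 6.49%. A rise of this list with CYP7a1-KO was thus not confined to PY. The summed list was 3562 to 4114 CPM in WT SLC45a2-KO, 2814 to 3486 in PY SLC45a2-KO, 3374 to 4973 in PY TGR5-KO and 4032 to 5837 in PY CYP7a1-KO. It was 3467 to 3631 CPM in WT TGR5-KO and 4756 to 5261 in WT CYP7a1-KO. The melanin sum was 4.22 ± 0.315% of it in WT SLC45a2-KO (n = 4) and 1.88 ± 0.164% in PY SLC45a2-KO (n = 5), without overlap. With the added knockouts in PY it was 2.55 ± 0.387% (TGR5-KO, n = 5) and 1.94 ± 0.211% (CYP7a1-KO, n = 5). In WT it was 4.46 ± 0.277% (TGR5-KO, n = 4) and 3.03 ± 0.349% (CYP7a1-KO, n = 4). Epcam, itga6b, krt15 and krt5 were at 0 in every library, and the part of skin in the result was not tested.

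In the other comparisons of PY with WT the eye and skin lists did not all go the way of the melanin genes. Of all genes 8.42% were lower and 11.4% higher with TGR5-KO, and 9.96% lower and 13.3% higher with CYP7a1-KO. With TGR5-KO in both backgrounds 16 photoreceptor markers fell and 2 rose (median -0.63), 2 pigment epithelium markers fell and 2 rose (median -0.14), and 10 keratinocyte markers rose and 3 fell (median 0.56). With CYP7a1-KO 21 photoreceptor markers fell and 1 rose (median -0.99), 8 pigment epithelium markers fell and 1 rose (median -0.77), and 11 keratinocyte markers fell and 6 rose (median -0.37).

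**Figure D4:**
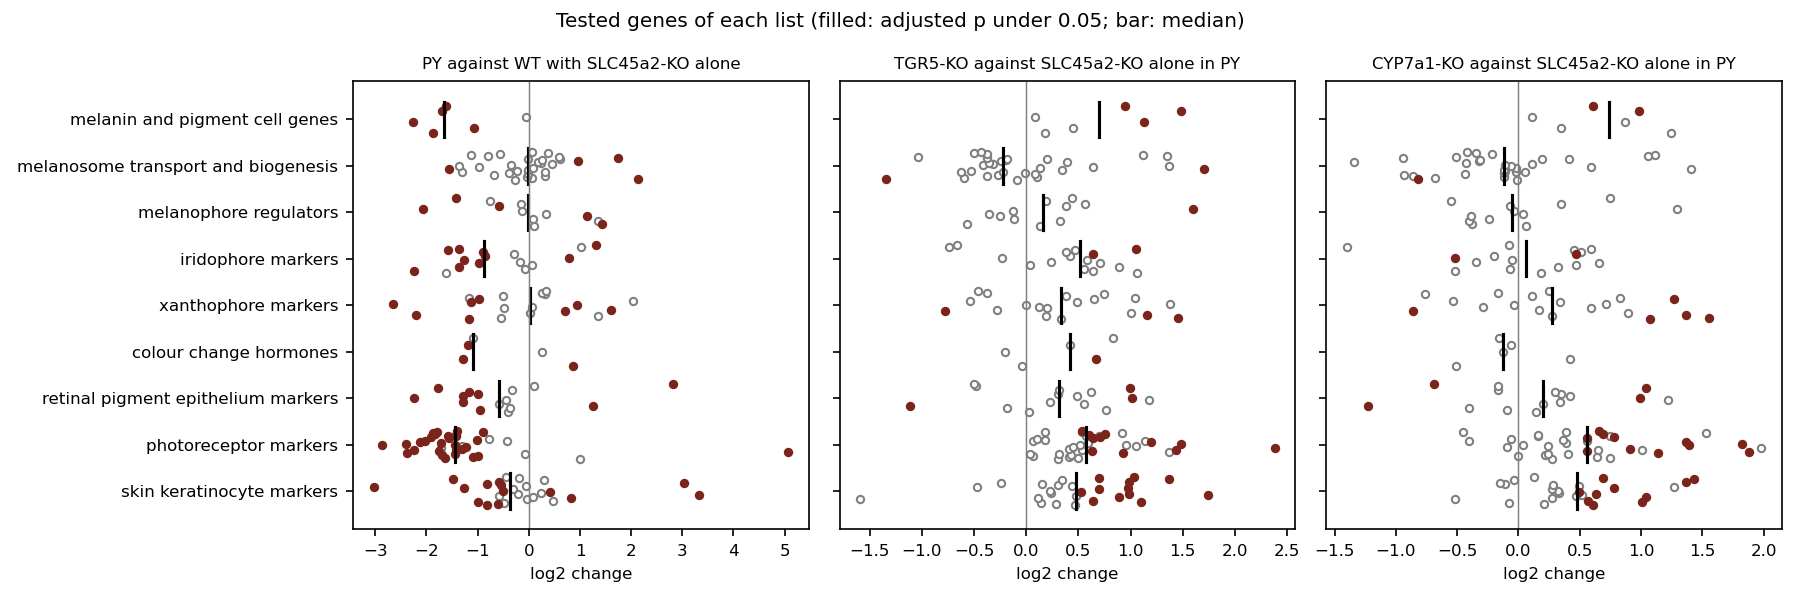
Log2 change (horizontal axis; its range differs between panels) of every tested gene of the melanin set and of 8 lists in 3 comparisons; filled points passed an adjusted p of 0.05 and bars are medians. In PY against WT the melanin genes, dct included, and the photoreceptor markers have medians of -1.65 and -1.44, and in both PY knockouts most of their points lie right of 0.

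**Figure D5:**
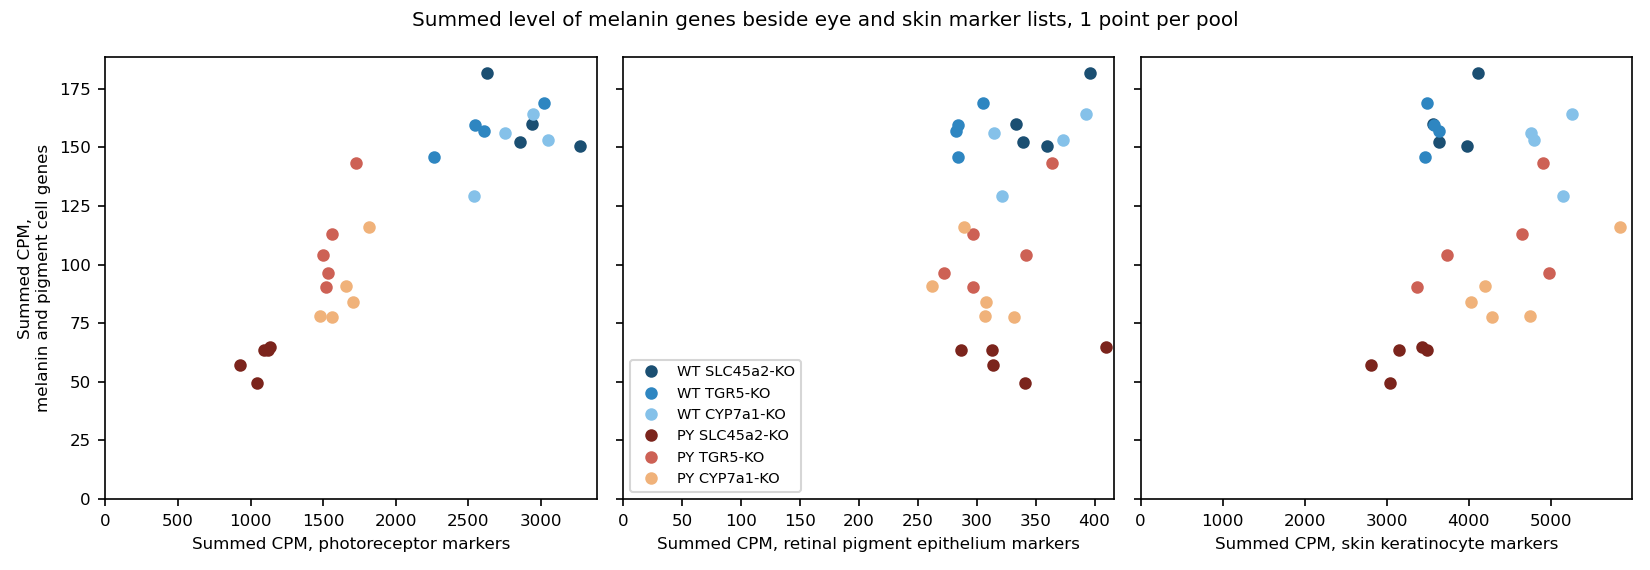
Summed scaled CPM of the 10 melanin and pigment cell genes (vertical axis) against the summed CPM of photoreceptor, retinal pigment epithelium and skin keratinocyte markers (horizontal axes), 1 point per library, coloured by group. The PY SLC45a2-KO libraries have the lowest melanin sums, 49.4 to 64.9 CPM, and also the lowest photoreceptor sums, 925 to 1133 CPM.

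Likeness to the melanin genes was measured as the root mean square difference, over the 27 libraries, between a gene's centred log2 CPM and the mean of the 6 tested genes. Smaller values are closer, the median over all tested genes outside the set was 0.768, and the measure also grows with the counting noise of a gene. Outside the set the nearest genes were the lens crystallin gene cryba1b at 0.213, the creatine kinase gene ckbb at 0.218, the ATP synthase genes atp5mc3b at 0.219 and atp5fa1 at 0.230, the lens crystallin gene crygmx and the retinal opsin gene rgrb at 0.242 each, tgfbi at 0.243 and sulf1 at 0.245. Reads of crygmx can be shared with other gamma-crystallins. The members themselves lay at 0.181 (tyrp1b), 0.250 (pmela), 0.336 (tyrp1a), 0.523 (pmelb), 0.545 (tyr) and 0.565 (dct). All of them but tyrp1b were thus farther from their own mean than the outside genes named, which were the closest of all genes tested. For sparse members that distance may be counting noise, so it does not by itself show an unshared profile. Each member is also part of the mean, which tends to shorten its own distance, so tyrp1b and the outside genes are not compared on equal terms. The mean includes dct, which passed the filter only through WT libraries. By group means of centred log2 CPM, pmelb was lowest in PY SLC45a2-KO (-1.24), as was tyrp1b (-0.93). Tyr ran only from -0.16 to 0.22, so the mean is not a profile shared by the whole set. The distances are descriptions over libraries that share their group differences.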

How the data were processed

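Pooled whole zebrafish larvae were sequenced as Lexogen QuantSeq 3′ mRNA libraries, per the labels. The authors deposited unnormalized read counts, 1 column for each of the 27 libraries. Beside them stand 27 columns of CPM that the authors derived from the counts: every deposited CPM value equalled the count over the column total within 0.001. The builds danRer10 and GRCz11 are named without a role, per the submitters' processing notes, and no label names the aligner, counter or strand setting, so reads of overlapping genes cannot be told apart.

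The count test was edgeR 4.0.16 (R 4.3.3) with TMM factors (0.91 to 1.07), the default filter (15521 genes kept), 1 mean per group over 27 libraries and a robust quasi-likelihood fit. SE is the log2 change over the root of the F statistic. The common biological coefficient of variation was 0.264. The 11 comparisons were 9 between 2 groups and 2 interactions. The 4 genes below the filter had exact two-sided permutation tests in scipy 1.17.1, adjusted over 30 tests. The alternatives comprised RLE factors, DESeq2 1.42.0, TMM after removal of abundant genes, other filters, only the groups compared, a fit without robust estimation, the replicate number as a block and leaving out libraries. Library pairs within groups differed beyond counting noise (chi-square per degree of freedom 4.36 to 22.9), so none was counted as a duplicate. The procedure was tested on simulated data.

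The genes and lists were chosen with earlier results of these data known. Named genes were all 10 members, up to 4 called genes per list and comparison with the largest change, and the 8 most alike in profile, and the text names part of them. Some genes are named outside this rule, among them tfec as an iridophore marker that rose, gnb1b for its part in a sum, and genes too low to test. No promoter or protein sequence was used here.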

Additional observations from a re-analysis of the deposited data

Results flagged for a closer look

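In 6 of 55 groups of libraries checked gene by gene, 1 library stood far from the others. In all 6 the other libraries were at 0 counts, where the check flags any single library with a count. These flags therefore do not measure an excess of outlying libraries. For slc45a2 these were WT SLC45a2-KO library 4 (0.19 CPM, 1 count), WT TGR5-KO library 1 (0.218 CPM, 1 count), WT CYP7a1-KO library 4 (0.381 CPM, 2 counts), PY TGR5-KO library 5 (0.243 CPM, 1 count) and PY CYP7a1-KO library 1 (1.06 CPM, 4 counts). For mlana it was PY CYP7a1-KO library 5 (0.198 CPM, 1 count).

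The effect of a knockout differed between PY and WT, by a test of the difference itself in edgeR, for tyrp1a with TGR5-KO (1.38 on the log2 scale, adjusted p = 0.00117), for tyrp1b with TGR5-KO (1.08, adjusted p = 0.00118) and for tyrp1b with CYP7a1-KO (0.89, adjusted p = 0.00409). In each case all PY knockout pools lay above all PY SLC45a2-KO pools, while the WT pools overlapped.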

How the results depend on the processing

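The counts of members called, dct included, stayed within 1.5 times of the reported ones under the alternatives run on all libraries. Leaving out 1 library at a time gave 4 to 5 members for PY against WT when only SLC45a2 was targeted. It gave 2 to 4 with TGR5-KO, 3 to 4 with CYP7a1-KO and 2 to 3 for each knockout in PY. The TGR5-KO interaction held 2, the CYP7a1-KO interaction 1 to 2 and the other 4 comparisons 0. The genes too low for edgeR also gave 0, but there a single comparison could not have passed after adjustment. Without PY CYP7a1-KO libraries 1 and 2 together, an alternative chosen after seeing the data, the CYP7a1-KO interaction held 3 members. The dct calls were lost with no filter (adjusted p = 0.1 and 0.0592) and with the replicate number as a block (adjusted p = 0.066 and 0.0572), and the first also in a fit of only the groups compared (adjusted p = 0.0759). That last fit also ended the pmelb calls for PY against WT with CYP7a1-KO (adjusted p = 0.0598) and for TGR5-KO in PY (adjusted p = 0.0869). The cause was not tested. Same-numbered libraries did not deviate together (correlation -0.104 to 0.0624 over 39 pairs), and the replicate block changed no other call: its log2 changes for dct were -1.84 and -2.08. DESeq2 gave 61 of 66 gene values, all on the same side of the threshold, and the filter of 5 CPM left out dct. Tyrp1a and tyrp1b kept every call and direction under the alternatives run. Over all genes, TGR5-KO against CYP7a1-KO in PY gave 21 calls, against 95 with no filter, 70 by DESeq2, 37 without robust estimation, 3 with only the groups compared and 12 without both libraries. With only the groups compared, CYP7a1-KO in PY gave 1354 calls against 2079, TGR5-KO in WT 1899 against 1008 and CYP7a1-KO in WT 2992 against 1804. Depth limits dct, oca2, slc24a5, slc45a2 and mlana.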

Other observations

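Values outside the comparisons above concern list genes chosen after their values were seen. The xanthophore marker aox5 was too low to test and had 27, 32 and 33 counts in WT with SLC45a2-KO alone, TGR5-KO and CYP7a1-KO, against 9, 15 and 7 in the PY groups in the same order. Slc2a15b, of the same list, ran the other way, with 4, 6 and 0 counts in these WT groups and 10, 13 and 17 in the PY groups. The melanophore receptor gene mc1r had 7, 13 and 13 counts in these WT groups and 22, 2 and 9 in the PY groups. The WT groups hold 4 libraries and the PY groups 5, and none of these genes was tested.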
